A study of Mus musculus with 2 samples.

Results

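Vascular smooth muscle cells of the mouse thalamus were selected on their measured counts, as the cells of a single-cell RNA sequencing experiment in which Acta2, Tagln and Myh11 together reached at least 10 UMIs. A UMI is a molecular identifier that marks 1 captured RNA molecule. A cell was used if it held at least 500 genes and 1000 UMIs and at most 15% of UMIs from mitochondrial genes. It was left out if it held more than 2 UMIs of Cldn5 (endothelial cells), Dcn (fibroblasts), Cx3cr1 (microglia) or Aqp4 (astrocytes), or if the oligodendrocyte genes Mog, Mag and Ermn together reached 10. The rule found 289 cells of 15804, that is 61 of 6366 in mouse 1 and 228 of 9438 in mouse 2. The thalamus came from 2 wildtype C57BL/6J mice, both 2 months old and untreated, and each mouse gave 1 library made with the 3' v3 kit of 10x Genomics. Cells were freed by enzymes, and the labels name no sort for a cell type. Each comparison is between cell types of the same 2 mice, so n is 2 mice throughout.

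Smooth muscle cells wrap arteries, arterioles and larger veins and set the width of the vessel by contracting. Calcium that enters through membrane channels or leaves internal stores activates myosin light chain kinase, the kinase lets myosin pull on actin, and myosin phosphatase ends the contraction. Pericytes sit on capillaries, share much of their gene expression with smooth muscle cells (both are called mural cells) and carry less of the contractile machinery.

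The comparison cells were gated with limits of the same kind. Pericytes held at least 5 UMIs of Kcnj8, Abcc9, Atp13a5 and Vtn together and fewer than 10 of the 3 smooth muscle genes, and numbered 324 in mouse 1 and 249 in mouse 2. Endothelial cells held at least 5 UMIs of Cldn5 and numbered 550 and 489. The libraries held 7889 and 12107 barcodes and 163418203 and 204839993 UMIs. They shared 36 barcodes, of which 0 belonged to smooth muscle cells of mouse 1 and 3 to those of mouse 2. Smooth muscle cells made up 0.958% of the cells of mouse 1 (exact 95% binomial interval 0.734 to 1.23%) and 2.42% of those of mouse 2 (2.12 to 2.75%). The intervals cover counting error only and do not overlap.

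The defining markers were present in nearly every cell, which describes the rule and carries no test. Levels are CPM, that is UMIs per 1000000 UMIs of the summed cells of a mouse, scaled for composition. Levels in terciles and in fibroblasts of the added gate, given further on, are not scaled in this way. Acta2, the smooth muscle actin, stood at 11179.5 and 5416 in mouse 1 and mouse 2, against 5.04 and 11.4 in pericytes. Tagln, an actin-binding protein, stood at 7537 and 3319.8 against 8.75 and 9.44. Myh11, the smooth muscle myosin heavy chain, stood at 4848 and 2818 against 49.1 and 66.0. All 3 were higher in mouse 1 than in mouse 2, and neither mouse came near its pericytes. With each cell thinned to 2000 UMIs, Acta2 was seen in 96.7% and 96.5% of the cells (96.7% and 99.6% unthinned). In oligodendrocytes, which do not make smooth muscle actin, the share was 0.355% and 0.355% after thinning and 6.14% and 3.35% before it. The median depth was 13094 UMIs in smooth muscle cells and 25473 in oligodendrocytes of mouse 1, and 8382 and 15210.5 in mouse 2.

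The gate set no limit on pericyte genes. Vtn supplied 80.2% and 70.2% of the pericyte UMIs of all its cells. Of the smooth muscle cells, 33 of 61 in mouse 1 (54.1%) and 105 of 228 in mouse 2 (46.1%) also held at least 5 pericyte UMIs. In these cells the median of the 3 smooth muscle genes was 46 UMIs (mouse 1) or 107 (mouse 2), against 481.5 and 160 in the remaining cells. The 4 and 7 cells just inside the minimum, with 10 to 14 smooth muscle UMIs, had a median of 103 and 40 pericyte UMIs. The 10 and 8 cells just outside it, with 5 to 9, had 97.5 and 37.5. Pericyte UMIs were thus about as many on both sides of the minimum. The gate joined cells rich in smooth muscle genes and poor in pericyte genes to cells that carried both.

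**Figure D1:**
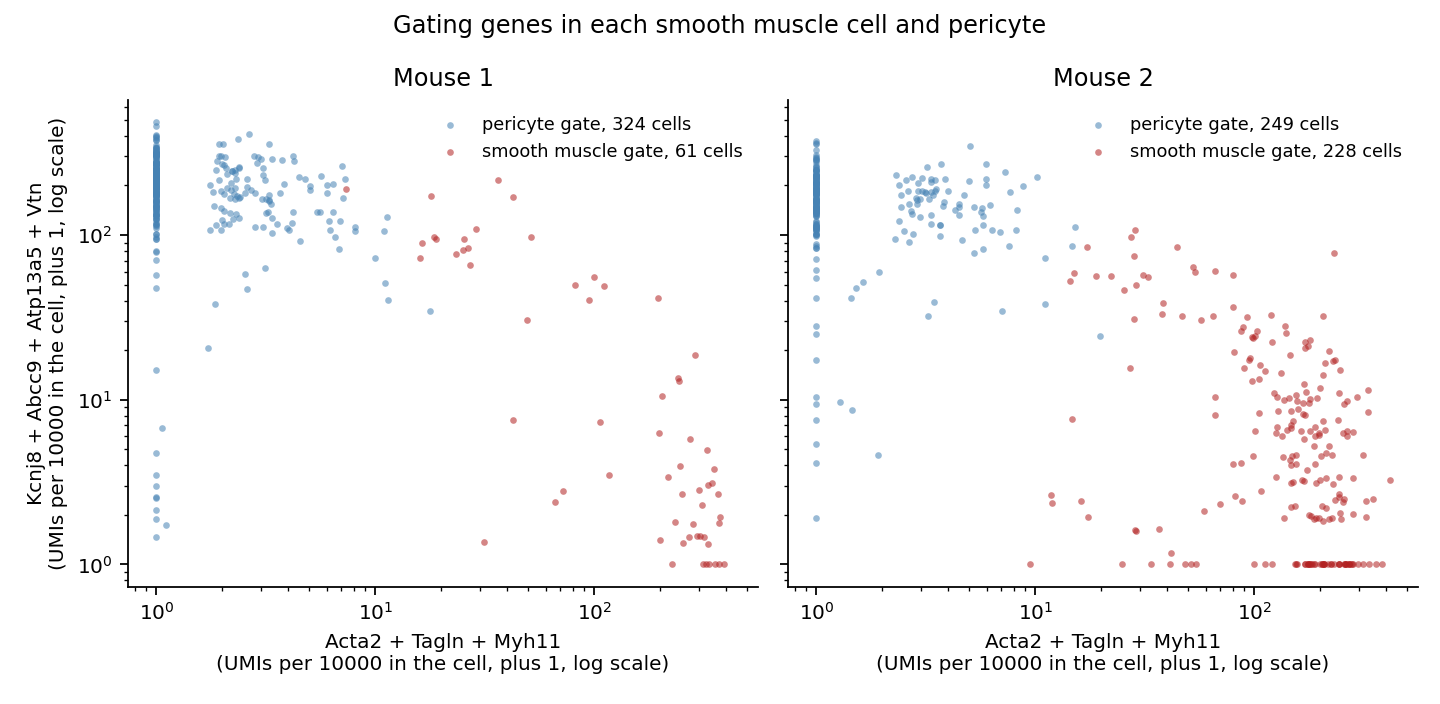
Each point is 1 cell of the smooth muscle gate (red) or the pericyte gate (blue), with the 3 smooth muscle genes on the horizontal axis and the 4 pericyte genes on the vertical axis, both as UMIs per 10000 in the cell plus 1 on log scales. The 61 and 228 smooth muscle cells reach from a dense group at the lower right to a sparse band that runs up toward the 324 and 249 pericytes.

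The pericyte markers Rgs5, Higd1b, Ndufa4l2, Cspg4, Anpep and Pdgfrb summed to 5689 and 3862 CPM in the gate, against 7100.0 and 6917 in pericytes. Markers of cells outside the vessel's mural lineage were lower, with exceptions. The endothelial markers Pecam1, Cdh5, Flt1, Ly6c1, Itm2a and Slco1a4 summed to 65.7 and 21.0 CPM (18092 and 10005 in endothelial cells), and 0 and 2 of the 6 were at 0. The fibroblast markers summed to 179.5 and 112, the oligodendrocyte markers to 522 and 399.6, the microglial ones to 182 and 29.2, and the astrocytic ones to 28.5 and 127. Neuronal markers (Snap25, Syt1, Rbfox3, Syn1, Stmn2) summed to 76.6 in mouse 1 and 1286 in mouse 2, where 11 cells above 40000 UMIs held 3165 of the 3612 neuronal marker UMIs. Haemoglobin stood at 20319.7 in mouse 1, where 1 cell held 18336 of 18563 haemoglobin UMIs, and at 648 in mouse 2. Pericytes held 832 and 1297 of the neuronal sum and 7968 and 3844 of the haemoglobin sum. Of their neuronal marker UMIs, 7 cells above 40000 UMIs held 2703 of 3136 in mouse 1, and 5 held 1576 of 2611 in mouse 2. Counts of genes without cells above 40000 UMIs stand beside the totals below.

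Against pericytes, the smooth muscle cells were higher in the contractile apparatus, in phospholamban and several other calcium-handling genes, in myocardin, and in elastin and its cross-linking enzyme. Most receptors, calcium channels and Notch genes were not called in either direction, which also holds for most tested genes (4.39% called). Counts were summed per cell type and mouse and tested across all genes with edgeR's quasi-likelihood test, with the mouse as a block. A gene counts as called if its p, adjusted by Benjamini and Hochberg's method, was below 0.05 and the log2 fold change was 1 or more in size. Of 16114 tested genes outside the gates, 491 were called higher in smooth muscle cells (3.05%) and 217 lower (1.35%), and 707 of these 708 (4.39%) had the same direction in each mouse. The median over all tested genes was -0.03 log2. The genes that define the gates are left out, but the same cells were gated and tested. A sum over cells cannot tell fewer cells with an RNA from less RNA per cell, so shares of cells are given for some genes.

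Other choices of cells moved these totals. Leaving out the cells above 40000 UMIs of any gate gave 870 higher and 646 lower genes; this choice was made with the data in view. Of the genes given below by name, Nwd2, Mrvi1 (1.68 log2, edgeR adjusted p = 0.079) and Foxc2 (3.51, edgeR adjusted p = 0.055) were then no longer called. The median share of mitochondrial UMIs was 7.40% and 6.22% in smooth muscle cells and 3.89% and 2.80% in pericytes. A limit of 5% left 15 and 79 smooth muscle cells, with 30 genes called higher and 6 lower. Of 100 genes that were called against pericytes, and are members of the lists or were named outside them, 90 were not called under that limit, and 21 of the 100 were then under 1 log2 in size. Myl9 went from 2.32 to 0.68, Smtn from 1.93 to 0.40, Rock1 from 2.00 to 0.65, Mcam from 2.03 to 0.61 and Btg2 from 3.01 to 0.51. A further 3, Cnn1, Fbxl22 and Sh3bgr, were not tested there. The limit left 10 lists with 0 members called in either direction, and the median over all genes was then -0.13 log2. Pericytes gated without the limits on other classes' genes, the literal reading of the rule, numbered 691 and 553, with 583 genes called higher and 1077 lower.

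The contractile list covers actin- and myosin-binding proteins, tropomyosins, light chains and the filaments that anchor them. Of its 25 tested members outside the gate, 16 were called higher, 0 lower and 9 were not called, and their median was 2.87 log2 against -0.03 for all genes. Over all tested genes 3.05% were called higher and 1.35% lower. The gates separate the cell types by the contractile genes Acta2, Tagln and Myh11, so the direction of this list is no independent evidence. Under the 5% mitochondrial limit 23 of the 25 were tested and 3 called higher, Lmod1, Csrp1 and Tpm2; Cnn1 was not tested. Cnn1 (calponin 1, an actin-binding inhibitor of myosin; chr9:22099216-22109630, GRCm38) had 284 and 64.1 CPM in smooth muscle cells of mouse 1 and mouse 2, and 0.265 and 0.497 in pericytes. The pericyte values rest on 2 UMIs in all, so the fold is given from counts: 341 times as high, with a 95% counting interval of 93.9 to 2826 (edgeR adjusted p = 0.0058). Lmod1 (leiomodin 1, which starts actin filaments; chr1:135324807-135368065) had 777 and 373 against 8.49 and 9.44, a log2 fold change of 6.04 ± 0.73 (SE, edgeR adjusted p = 0.0038). Both mice were far above both pericyte values for each gene. Calponin was counted in 44.3% and 27.6% of the smooth muscle cells (21.3% and 12.3% thinned) and leiomodin in 90.2% and 92.5% (68.9% and 57.02% thinned). In oligodendrocytes these shares were 0.304% and 0.148% for Cnn1 and 0.913% and 2.04% for Lmod1.

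Csrp1, a LIM protein of the actin cytoskeleton (chr1:135720061-135752232), had 1395 and 692 against 18.04 and 15.4 CPM, or 5.90 ± 0.43 log2 (SE, edgeR adjusted p = 0.00056). It does not mark these cells in this tissue, since it was counted in 99.6% and 97.7% of oligodendrocytes. Pdlim3, which binds alpha-actinin (chr8:45885461-45919548), had 293 and 256 against 7.69 and 1.49, or 5.75 ± 0.57 (edgeR adjusted p = 0.0018). The light chains were already abundant in pericytes. Myl9, the regulatory light chain that the kinase acts on, had 4999 and 2568 against 924 and 563 CPM, or 2.32 ± 0.41 (edgeR adjusted p = 0.015). The essential light chain Myl6 (2.87), the kinase Mylk (3.05), the tropomyosins Tpm1 (3.52) and Tpm2 (5.04), and the cross-linkers Flna (3.50) and Actn1 (4.19) were also called higher, with log2 fold changes in brackets. So were Ldb3 (4.68), Synm (4.83), Des (2.51), Smtn (1.93) and Synpo2 (1.92). Most members that were not called are also made by non-muscle cells. Cald1, caldesmon, had 3567 and 2679.8 against 2648 and 2382 (0.32 ± 0.42), and Myh9, Myh10, Tpm4, Vcl and Tagln2 lay between -0.60 and 0.62 log2. Cnn2 (1.47) and Pdlim7 (2.26) missed the threshold, with edgeR adjusted p = 0.067 and 0.071. Actg2, another smooth muscle actin, had 35 UMIs in smooth muscle cells and 0 in pericytes, at least 18.1-fold higher against a floor of 3 UMIs over the pericytes of both mice, and was not called (edgeR adjusted p = 0.10).

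**Figure D2:**
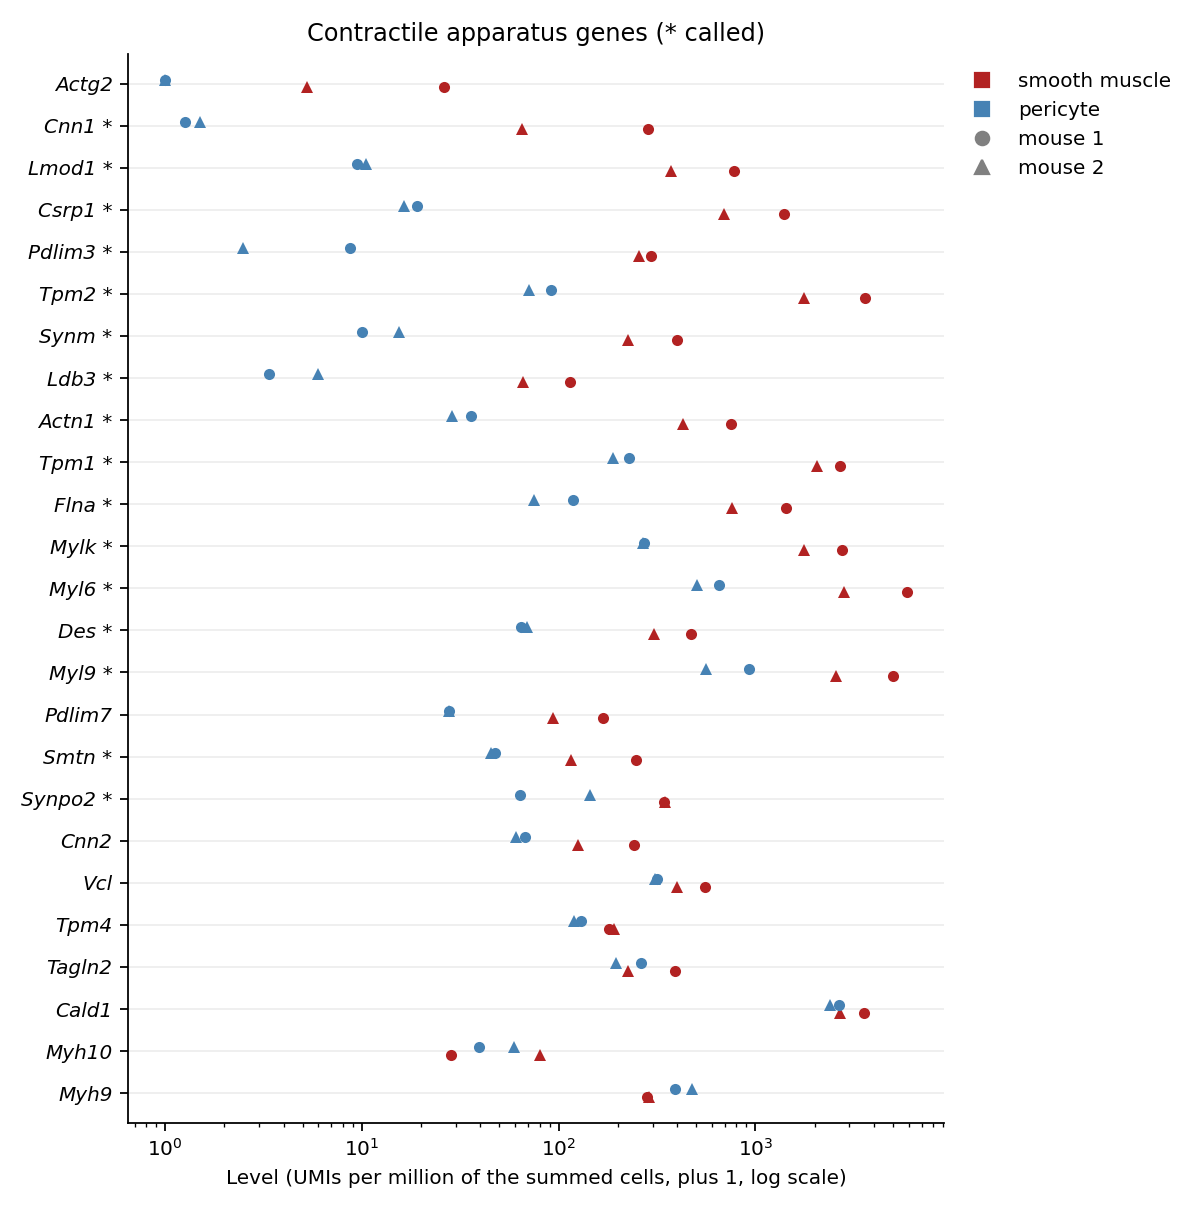
Levels of the 25 contractile genes as CPM plus 1 on a log axis, with red for smooth muscle cells, blue for pericytes, circles for mouse 1 and triangles for mouse 2; an asterisk marks the 16 called genes. Genes are ordered by fitted fold change, and the cell types come together toward the end of the order, where Cald1, Myh10 and Myh9 lie.

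Many smooth muscle genes are switched on by serum response factor, which binds the CArG box, an A/T core set between CC and GG. The 250 bases before the annotated start were searched for it in RefSeq promoters of GRCm38.p6, on both strands, exactly and with 1 G or C allowed in the core. The exact box was found before 5 of the 24 contractile genes in the table (20.8%) and before 1.62% of all 27025 genes there. With the looser core it was 7 of 24 (29.2%) against 9.78%. Among the 16 called contractile genes, 3 had the exact box, Myl9, Myl6 and Ldb3, and no match of either form lay in the windows of Cnn1, Lmod1 or Csrp1. The exact box also lay before Cnn2 and Vcl, which were not called, so it did not separate called from uncalled members. A match is a stretch of letters and not a measured binding site. Shown here, chosen after the values were seen, are the gate gene Acta2 (chr19:34255374-34255623, minus strand), the light chain Myl9 (chr2:156775214-156775463, plus strand) and Fbxl22 (chr9:66514594-66514843, minus strand), an F-box gene with a large difference described further on. Capitals mark boxes with the looser core in Acta2 and only the exact box in Myl9 and Fbxl22. Acta2 has 2, beginning 84 and 34 bases before the start. The exact box begins 161 bases before the start in Myl9 and 222 in Fbxl22. Myl9 also holds a looser match, ccttgtaagg, left in lower case.
Acta2: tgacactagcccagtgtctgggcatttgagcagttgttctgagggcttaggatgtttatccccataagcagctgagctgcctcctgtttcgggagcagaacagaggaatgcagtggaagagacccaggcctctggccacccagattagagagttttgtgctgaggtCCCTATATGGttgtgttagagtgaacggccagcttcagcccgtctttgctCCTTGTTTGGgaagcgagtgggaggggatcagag
Myl9: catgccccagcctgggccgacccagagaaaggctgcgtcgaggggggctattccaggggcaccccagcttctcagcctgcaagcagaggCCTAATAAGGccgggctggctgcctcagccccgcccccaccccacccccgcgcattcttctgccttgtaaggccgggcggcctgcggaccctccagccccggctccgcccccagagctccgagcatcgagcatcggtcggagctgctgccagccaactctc
Fbxl22: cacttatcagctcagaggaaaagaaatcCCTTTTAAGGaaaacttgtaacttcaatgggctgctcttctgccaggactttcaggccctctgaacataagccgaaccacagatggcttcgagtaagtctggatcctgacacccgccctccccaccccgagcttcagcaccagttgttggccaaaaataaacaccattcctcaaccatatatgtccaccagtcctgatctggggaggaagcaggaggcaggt

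Contraction and relaxation signalling had 6 of 24 tested members higher and 0 lower (median 0.65 log2, beside 3.05% and 1.35% of all tested genes). Myosin phosphatase was represented by its targeting subunits, which bring the enzyme to myosin. Ppp1r12a had 1467 and 1056 against 286 and 289 CPM, or 2.12 ± 0.26 log2 (SE, edgeR adjusted p = 0.0036). Ppp1r12b had 647 and 507 against 83.0 and 87.9, or 2.75 ± 0.28 (edgeR adjusted p = 0.0016). Rock1, a kinase that inhibits the phosphatase, was called at 2.00 log2. The coat proteins of caveolae, small pits of the cell membrane, were higher too. Cav1 had 220.0 and 143 against 7.43 and 7.45 (4.60 ± 0.60, edgeR adjusted p = 0.0055), and Cavin1 had 1003 and 783 against 47.5 and 67.0 (3.92 ± 0.67, edgeR adjusted p = 0.016). Against pericytes gated without the limits on other classes, which admits cells that hold Cldn5, Cav1 was at 0.91 log2 and not called (edgeR adjusted p = 0.37). The nitric oxide branch, which relaxes the vessel, was not called for its kinase or cyclase: Prkg1, the cGMP-dependent kinase, had 2578 and 2613 against 1626 and 1615 (0.67 ± 0.53), and the guanylate cyclase subunit Gucy1a1 was at 0.42. Mrvi1, a substrate of that kinase on calcium stores, was called at 1.83.

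Calcium storage and extrusion had 4 of 15 tested members higher and 1 lower (median 0.69 log2, beside 3.05% and 1.35% of all tested genes). Pln (phospholamban, which holds back the calcium pump of the sarcoplasmic reticulum; chr10:53337667-53345987) had 1219 and 834 CPM, against 0 and 1.49 in pericytes and 1.08 and 3.30 in endothelial cells. From counts, 3456 UMIs against 3 in pericytes, it was 1790.5 times as high, with a counting interval of 612 to 8686 (edgeR adjusted p = 0.00082). It was counted in 73.8% and 86.8% of the smooth muscle cells (59.0% and 72.8% thinned) and in 2.28% and 1.42% of oligodendrocytes. The pump it controls, Atp2a2, was called with a smaller difference (1.75 log2) and stood at 338 and 356 in pericytes. Jph2 (junctophilin 2, which ties the store to the surface membrane) had 177 and 144 against 4.51 and 5.46, or 5.03 ± 0.51 log2 (SE, edgeR adjusted p = 0.0016). The surface pump Atp2b4 had 296 and 278 against 27.3 and 41.2 (3.10 ± 0.45, edgeR adjusted p = 0.0076). The release channels differed from each other. Itpr2 was lower, at 61.3 and 44.5 against 302 and 298 (-2.53 ± 0.40, edgeR adjusted p = 0.0090), and Itpr1 stood at 567 and 423 against 389.9 and 469 with no call.

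Of 23 surface ion channel genes, 4 were called higher and 0 lower (median 0.82 log2, beside 3.05% and 1.35% of all tested genes). Potassium channel proteins are encoded by 3 of those 4. Kcna5 (Kv1.5; chr6:126532551-126535412) had 84.3 and 60.9 against 1.33 and 0 CPM, or 6.46 ± 0.65 log2 (SE, edgeR adjusted p = 0.0016). Kcnab1, a beta subunit of such channels, had 1473 and 963 against 26.5 and 76.0 (5.04 ± 0.89, edgeR adjusted p = 0.018). Kcnk3 (TASK-1, a leak channel) had 154 and 88.7 against 19.6 and 23.3 (2.56 ± 0.55, edgeR adjusted p = 0.038). For all 3 the lower smooth muscle value was above the higher pericyte value. Piezo1, a stretch-gated channel, was called at 3.40 log2 from only 15.3 and 18.5 CPM, and endothelial cells held 97.8 and 62.6. With the literal pericyte gate Piezo1 changed sign, to -0.93. The L-type calcium channel Cacna1c had 794 and 947 against 743 and 924 (0.07 ± 0.65), and the chloride channel Ano1 had 360.1 and 419.9 against 361 and 417 (0.00 ± 0.36). Neither was called, and in each the values of the cell types lay close together. The calcium-activated potassium channel Kcnma1 had 386 and 493 against 1213 and 971 and was not called (edgeR adjusted p = 0.32).

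Receptors for vasoactive signals had 2 of 31 tested members higher and 0 lower, a share not far from the background of 3.05%, with a median of -0.11 log2. Ramp1, the partner that turns Calcrl into the receptor for calcitonin gene-related peptide, had 153 and 89.7 against 7.43 and 11.4 CPM (3.72 ± 0.45 SE, edgeR adjusted p = 0.0035). Calcrl itself had 65.7 and 43.4 against 37.4 and 41.7 and was not called. Npy1r, the Y1 receptor for the constrictor neuropeptide Y, had 354 and 225 against 44.6 and 60.6 (2.51 ± 0.37, edgeR adjusted p = 0.0067). Under the 5% mitochondrial limit Npy1r was at 1.14 and Ramp1 at 1.31, and neither was called (edgeR adjusted p = 0.61 and 0.45). Npy1r was counted in 90.2% and 84.2% of the smooth muscle cells (42.6% and 43.0% thinned). The shares were 33.3% and 30.1% in pericytes (13.4% and 15.2% thinned) and 1.52% and 1.60% in oligodendrocytes. The endothelin receptor Ednra had 303 and 233 against 212 and 187 (0.42 ± 0.30) and was not called. Htr1b, a serotonin receptor, had 31.7 and 21.4 against 0 and 1.49 and was not called either (edgeR adjusted p = 0.094).

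**Figure D3:**
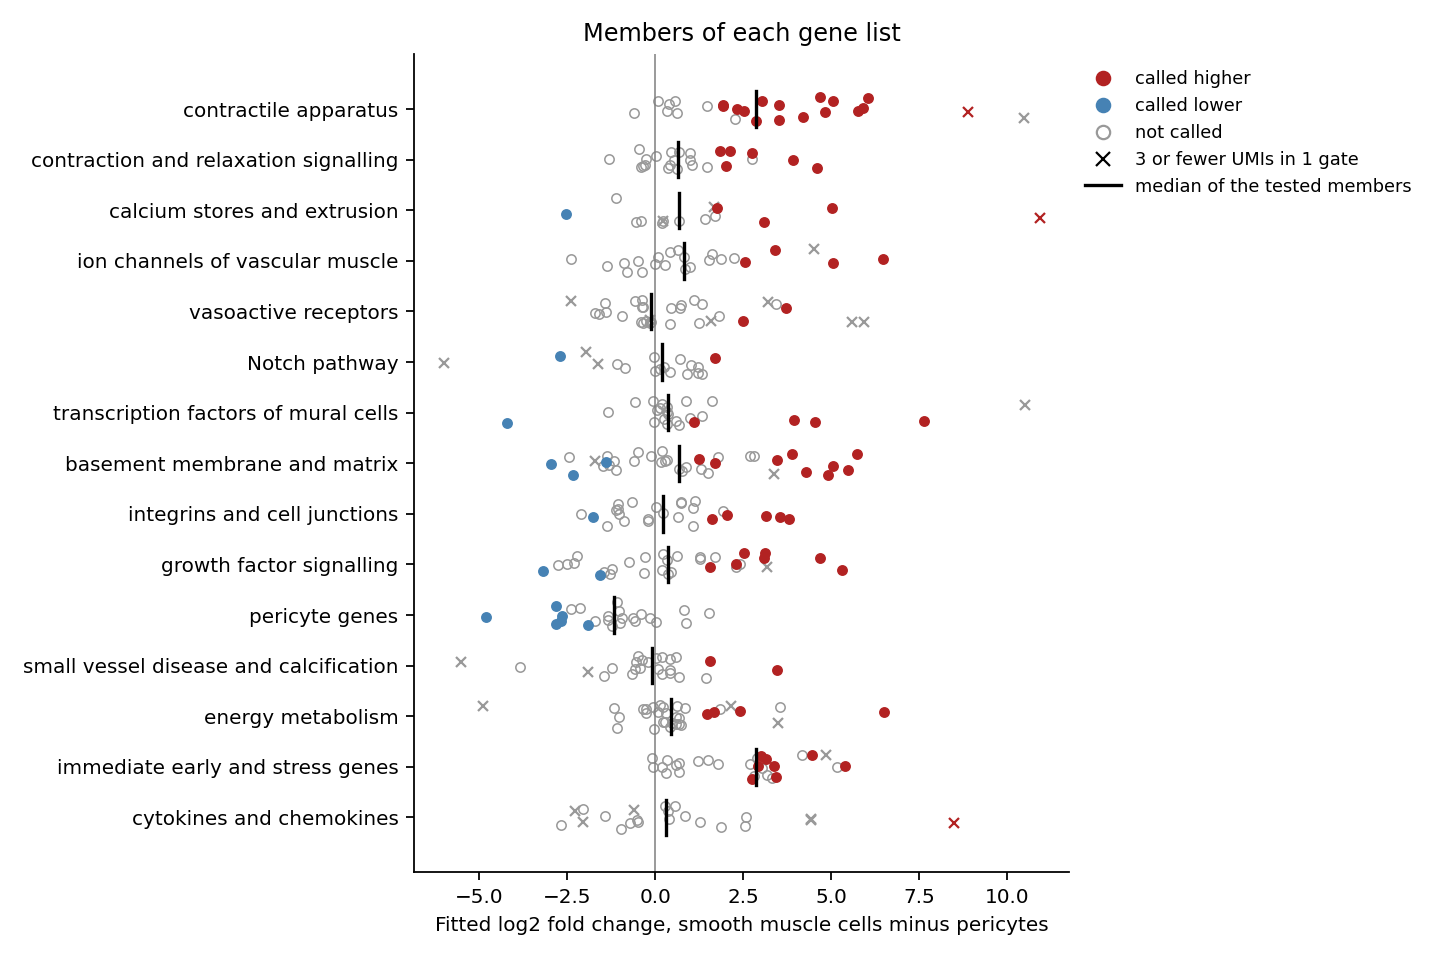
Fitted log2 fold changes, smooth muscle cells minus pericytes, for every tested member of 15 gene lists, with called genes in red (higher) and blue (lower), genes not called in grey and a black bar at each list's median. Crosses mark genes with 3 or fewer UMIs in 1 cell type, whose fitted values depend on the prior count; the contractile and immediate early lists have medians of 2.87 and 2.85 log2, and the other lists lie between -1.16 and 0.82.

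Among 24 tested transcription factors of mural cells, 4 were called higher and 1 lower (median 0.36). Myocd (myocardin, the coactivator of serum response factor; chr11:65176561-65269989) had 360.1 and 337 against 1.59 and 1.99 CPM, or 7.62 ± 0.55 log2 (SE, edgeR adjusted p = 0.00082). The mice nearly coincided, and it was counted in 75.4% and 86.8% of the cells (37.7% and 51.8% thinned) and in 0.304% and 0.326% of oligodendrocytes. Its partner Srf had 21.9 and 9.97 against 4.51 and 5.46 and was not called. Prdm16 had 135 and 93.3 against 4.77 and 5.46 (4.54 ± 0.55, edgeR adjusted p = 0.0039), though endothelial cells held 136 and 42.7 and astrocytes 189 and 74.3. Mef2d was called at 1.09 ± 0.25 with 0.89 in mouse 1 alone, and Foxc2 at 3.93 from 19.7 and 10.7 CPM. The repressor Hic1 was lower, with 9.85 and 2.49 against 111 and 71.5 (-4.20 ± 0.53, edgeR adjusted p = 0.0039). Notch signalling, which keeps arterial muscle in its differentiated state, had 1 of 18 members higher and 1 lower (median 0.20). Over all tested genes 3.05% were called higher and 1.35% lower. The ligand Jag1 had 224 and 105 against 40.0 and 53.6 (1.71 ± 0.37, edgeR adjusted p = 0.035; 0.97 in mouse 2 alone), and Notch4, a receptor of endothelial cells, was called at -2.70. Notch3, the main receptor of mural cells, had 870.2 and 644 against 492 and 620.2 (0.43 ± 0.37) and was not called.

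Matrix genes moved in both directions: 9 of 35 tested were called higher and 3 lower (median 0.69, beside 3.05% and 1.35% of all genes). Eln (elastin; chr5:134702593-134747323) had 91.9 and 100.1 against 1.06 and 2.98 CPM (5.73 ± 0.57 SE log2, edgeR adjusted p = 0.0015), and Lox, the enzyme that cross-links it, had 66.8 and 46.3 against 0.796 and 1.99 (5.47 ± 0.62, edgeR adjusted p = 0.0036). Elastin was counted in 29.5% and 25.4% of the cells. Laminin chains went both ways. Lama5 had 175 and 119 against 4.24 and 4.97 (5.05 ± 0.36, edgeR adjusted p = 0.00056), while Lama2 had 169 and 105 against 702 and 653 (-2.35 ± 0.31, edgeR adjusted p = 0.0042). Lamb1 and Lamc3 were also lower, at -2.95 and -1.40. The basement membrane glycoprotein Tinagl1 had 601 and 248 against 10.1 and 14.4 (4.90 ± 0.78, edgeR adjusted p = 0.011). The metalloproteinase inhibitor Timp3, which binds to matrix, had 1258 and 978 against 52.5 and 187 (3.46 ± 0.68, edgeR adjusted p = 0.028). Adamts1 (4.27), Col18a1 (3.87), Sparcl1 (1.69) and Ecm1 (1.26) made up the rest. Sparcl1 was at 0.18 and not called under the 5% mitochondrial limit (edgeR adjusted p = 0.95). The collagen IV chain Col4a1, a main component of basement membrane, was at 0.18 and not called.

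Of 25 adhesion and junction genes, 5 were called higher and 1 lower (median 0.21, beside 3.05% and 1.35% of all tested genes). Nexn (nexilin, an actin-binding protein of adhesions) had 319 and 198 against 14.9 and 25.8 CPM (3.81 ± 0.60 SE log2, edgeR adjusted p = 0.011). The integrin Itga8 had 229 and 141 against 21.5 and 21.4 (3.14 ± 0.70, edgeR adjusted p = 0.045), and Itga7, which binds laminin, was called at 1.60. The cadherins went both ways. Cdh6 had 304 and 259.6 against 20.7 and 30.8 (3.55 ± 0.67, edgeR adjusted p = 0.023), and Cdh2, N-cadherin, had 62.4 and 119 against 279 and 319 (-1.77 ± 0.42, edgeR adjusted p = 0.049). Mcam (CD146), an adhesion molecule of the vessel wall, had 598 and 426 against 111 and 139 (2.03 ± 0.37, edgeR adjusted p = 0.017).

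Growth factor genes had 7 of 31 members higher and 2 lower (median 0.36, beside 3.05% and 1.35% of all tested genes). Ltbp1, which keeps latent transforming growth factor beta in the matrix, had 581 and 387 against 9.55 and 15.9 CPM (5.31 ± 0.59 SE log2, edgeR adjusted p = 0.0027). Tgfb3, a member of that family, had 211 and 128 against 5.83 and 7.45 (4.69 ± 0.46, edgeR adjusted p = 0.0016). Fgf1 had 325 and 230.4 against 38.7 and 24.3 (3.12 ± 0.40, edgeR adjusted p = 0.0042), and astrocytes held 233 and 181. Thinned oligodendrocytes held it in 16.5% and 19.5% of cells, and thinned smooth muscle cells in 29.5% and 43.4%. In all 3 both mice stood above both pericyte values. Pdgfa (2.52), the angiopoietins Angpt1 (3.09) and Angpt2 (2.30) and the receptor Fgfr1 (1.55) were called as well. Pleiotrophin, Ptn, was lower, at 544 and 168 against 3195 and 2900.1 (-3.17 ± 0.69, edgeR adjusted p = 0.038), and the coreceptor Eng was called at -1.57. Pdgfrb, the receptor through which mural cells are recruited, had 529.8 and 322 against 955 and 996 and was not called (-1.22 ± 0.42, edgeR adjusted p = 0.16).

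The list of 24 pericyte genes outside the gate had 6 members lower and 0 higher (median -1.16, beside 1.35% and 3.05% of all genes). They were listed as pericyte genes and the gates separate the cell types, so this direction is no independent evidence. Slc6a20a, an amino acid transporter, had 192 and 91.9 against 940.2 and 867 CPM (-2.81 ± 0.48 SE log2, edgeR adjusted p = 0.014). Slc30a10, a manganese exporter, had 42.7 and 18.5 against 213 and 184 (-2.81 ± 0.32, edgeR adjusted p = 0.0025). The surface enzyme Ggt1 had 13.1 and 0.712 against 134 and 128 (-4.81 ± 0.78, edgeR adjusted p = 0.012). The aminopeptidase Anpep had 24.1 and 4.27 against 79.6 and 60.1 (-2.67 ± 0.55, edgeR adjusted p = 0.038), and Ifitm1 was called at -2.64. In each of the first 4 the level in smooth muscle cells was higher in mouse 1, where the gate genes Vtn (1918 and 476), Kcnj8 (74.4 and 18.5) and Abcc9 (88.7 and 17.1) were also higher than in mouse 2. With the smooth muscle cells of 5 or more pericyte UMIs left out, 15 of the 24 were called lower. Rgs5 and Cspg4, both used as pericyte markers, were not called: Rgs5 had 3635 and 2684 against 3809 and 4088 (-0.41 ± 0.63), and Cspg4 had 407 and 302 against 315 and 439 (0.01 ± 0.38).

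Disease genes of small vessels, which include those of inherited brain calcification, had 2 of 24 higher and 0 lower (median -0.09). Over all tested genes 3.05% were higher and 1.35% lower. Slc20a2 (PiT-2, a phosphate importer whose loss causes brain calcification) had 183 and 91.2 against 49.1 and 39.7 CPM (1.56 ± 0.27 SE log2, edgeR adjusted p = 0.013), and the other was Timp3. With cells thinned, Slc20a2 was counted in 26.0% and 24.8% of oligodendrocytes and in 26.2% and 14.5% of smooth muscle cells. Energy metabolism had 4 of 32 higher and 0 lower (median 0.45). Lpl, lipoprotein lipase, had 127 and 29.9 against 0.265 and 1.99 (6.49 ± 1.26, edgeR adjusted p = 0.025), with mouse 1 well above mouse 2. Brain creatine kinase Ckb had 993 and 643 against 251 and 256 (1.66 ± 0.36, edgeR adjusted p = 0.035), and was at 0.17 and not called under the 5% mitochondrial limit (edgeR adjusted p = 0.99). The respiratory chain subunit Ndufa4 had 449 and 428 against 166 and 150.0 (1.47 ± 0.27, edgeR adjusted p = 0.019), and the insulin-responsive glucose transporter Slc2a4 was called at 2.41. Beside the 3.05% of all genes, 1 of 22 tested cytokine and prostanoid genes was higher. This was Ptgis, prostacyclin synthase, with 227 and 48.1 against 0.265 and 0.497, from 342 UMIs against 2, a ratio of 266 with a counting interval of 73.0 to 2203 (edgeR adjusted p = 0.0084).

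Immediate early genes, which cells switch on within minutes of a stimulus, had 8 of 28 members higher and 0 lower, with a median of 2.85 log2. Of all tested genes 3.05% were higher and 1.35% lower. Fos had 1783 and 2875 CPM in smooth muscle cells and 5.04 and 1545 in pericytes, and was not called (edgeR adjusted p = 0.11). Its pericyte value was near 0 in mouse 1 only. Junb had 732 and 2019.6 against 22.5 and 585 (3.37 ± 0.76 SE log2, edgeR adjusted p = 0.045). Atf3 had 315 and 606 against 1.06 and 78.5 (5.40 ± 1.24, edgeR adjusted p = 0.048), and Nr4a1 had 317 and 611 against 19.1 and 95.8 (3.43 ± 0.77, edgeR adjusted p = 0.045). Fosl2 had 89.8 and 155 against 2.65 and 9.93 (4.44 ± 0.51, edgeR adjusted p = 0.0027). In all 4 called genes mouse 2 was higher than mouse 1 in both cell types. Btg2 (3.01), Zfp36 (2.75), Socs3 (2.93) and Gadd45g (3.16) were called too. Without the replicate block 1 member was called higher than in pericytes, and 0 under the 5% mitochondrial limit.

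Outside the lists, the named genes above pericytes were nearly silent in pericytes. They were chosen for the largest fold changes against pericytes, so low pericyte counts follow in part from that choice. Sh3bgr had 125 and 42.7 CPM, Pi15 (a peptidase inhibitor) 81.0 and 50.6, and Olfr78 (an olfactory receptor gene also known from blood vessels and the carotid body) 61.3 and 61.6, and none had a UMI in pericytes. Against a floor of 3 UMIs over the pericytes of both mice they were at least 121-fold, 112-fold and 119-fold higher (edgeR adjusted p = 0.0081, 0.0059 and 0.017). DESeq2's Wald test did not call Pi15 or Olfr78 (DESeq2 adjusted p = 0.27 and 0.28), nor did edgeR under the 5% mitochondrial limit (edgeR adjusted p = 0.28 and 0.18). A further 7 genes rested on 1 to 3 pericyte UMIs, so their ratios have wide counting intervals. Thbs1, the matrix protein thrombospondin 1, had 116 and 104 against 0.265 and 0.497, a ratio of 309 (84.8 to 2556). Fbxl22, an F-box protein of the sarcomere whose upstream sequence is printed above, had 201 and 106 against 0.265 and 0.993, a ratio of 249.7 (84.9 to 1215). The other ratios were 449 (80.0 to 17802) for Otogl, 406 (72.2 to 16083) for Smim5, 349.7 (62.1 to 13873) for Fgl2, 326 (89.8 to 2704) for Olfml2a and 392 (69.7 to 15531) for Atcayos. Atcayos is antisense to Atcay, and the sources used here do not say whether the counting used strand, so its reads cannot be told from those of its partner.

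Of the genes outside the lists that were lower than in pericytes, Nodal, a ligand of the transforming growth factor family, had 4.38 and 3.21 against 104 and 87.9 CPM (-4.69 ± 0.47 SE log2, edgeR adjusted p = 0.0022). Sfrp2, a Wnt antagonist, had 6.57 and 0.712 against 72.9 and 52.6 (-4.68 ± 0.90, edgeR adjusted p = 0.024). The acute-phase genes Saa1 and Saa2 had 3 UMIs each in smooth muscle cells and 375 and 360 in pericytes, so pericytes were 80.4 (27.3 to 392) and 77.2 (26.2 to 376) times as high. These are near-identical neighbours, and how reads were shared between them is uncertain. Trpm3, a cation channel, had 24.1 and 54.8 against 985 and 472 (-4.34 ± 0.78, edgeR adjusted p = 0.018), yet it was counted in 34.9% and 21.7% of pericytes and 27.9% and 23.2% of smooth muscle cells. Nwd2 had 4.38 and 39.9 against 605 and 356 (-4.38 ± 0.97, edgeR adjusted p = 0.044) and was at -2.40 with no call once cells above 40000 UMIs were left out (edgeR adjusted p = 0.18).

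Set against endothelial cells, 1277 genes were called higher (7.92%) and 1403 lower (8.71%; 16.6% either way), and 342 genes were higher than in both pericytes and endothelial cells. The list counts included genes that both mural types hold: 19 of 25 contractile, 15 of 24 contraction signalling, 14 of 23 ion channel, 12 of 31 receptor and 20 of 24 pericyte genes were higher. The genes named above fell into different kinds. Myocd, Pln, Kcna5, Lmod1, Npy1r and Itga8 were below 10 CPM in endothelial cells of each mouse and were called higher against them. Cav1, Prdm16, Tinagl1, Timp3 and Ndufa4, all higher than in pericytes, were not called against endothelial cells. Cav1 had 366 and 145 in endothelial cells against 220.0 and 143 in smooth muscle cells (-0.49 log2, edgeR adjusted p = 0.60), and Timp3 had 796 and 598 against 1258 and 978 (0.67, edgeR adjusted p = 0.56). The immediate early list had 7 of 28 higher and 2 lower, with a median of 0.35.

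**Figure D4:**
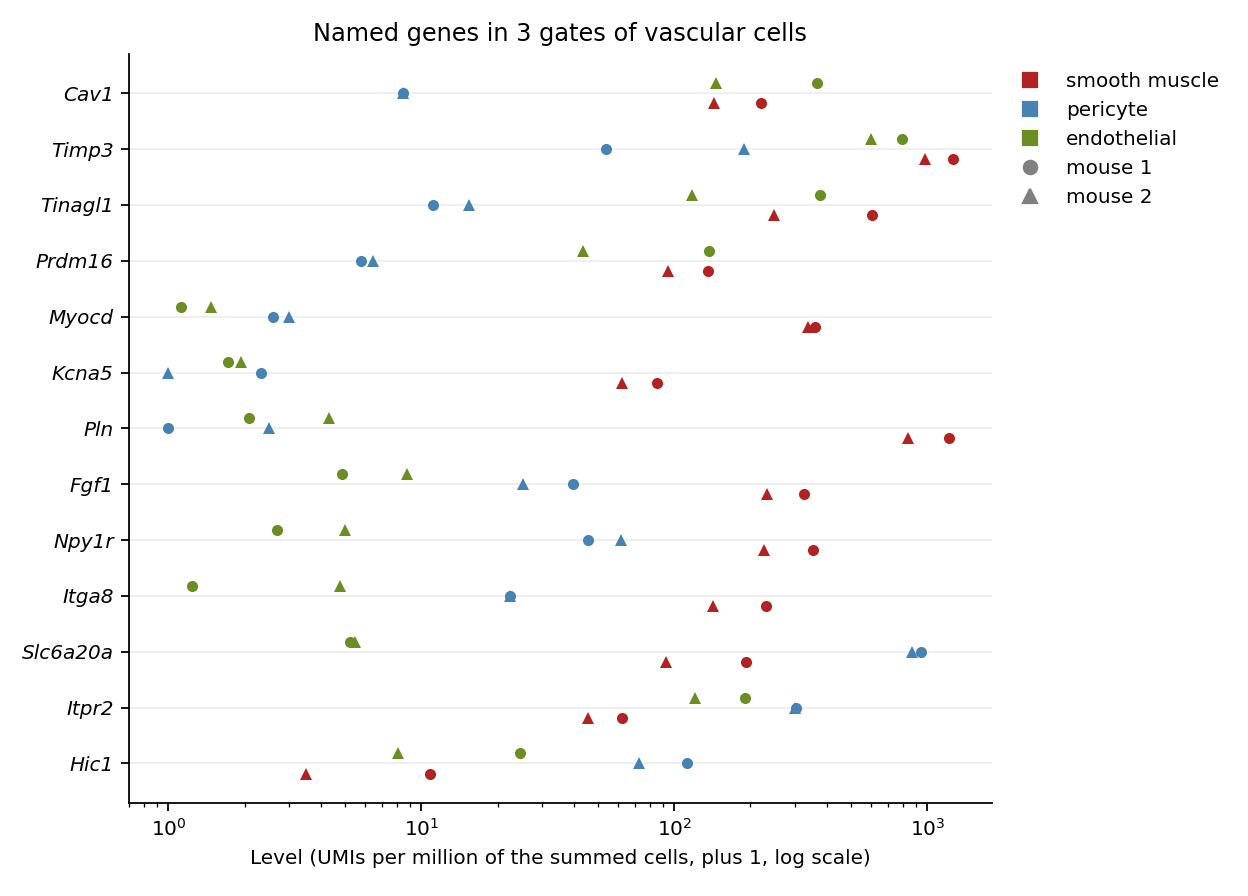
Levels of 13 named genes in smooth muscle cells (red), pericytes (blue) and endothelial cells (green) as CPM plus 1 on a log axis, with circles for mouse 1 and triangles for mouse 2. In Cav1, Timp3, Tinagl1 and Prdm16 the smooth muscle and endothelial points lie near each other and the pericyte points lower; in Myocd, Kcna5 and Pln the smooth muscle points stand alone.

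Fibroblasts could not be compared with the limit on pericyte genes in place, since it left 5 cells in each mouse. With that limit dropped, a choice made with the data in view, there were 21 and 45, and 786 of 15864 genes were called higher in smooth muscle cells (4.95%) and 677 lower (4.27%). The contractile list had 17 of 25 higher and 0 lower. The matrix list had 6 of 37 higher and 16 lower. Col1a2, a fibrillar collagen chain, was at -3.07 log2 (edgeR adjusted p = 0.00072). Eln and Lox, far above pericytes, were not called against fibroblasts, where Eln stood at 46.9 and 67.5 CPM and Lox at 46.9 and 57.6 (edgeR adjusted p = 0.18 and 0.60). Of all tested genes, 237 were higher than in pericytes, endothelial cells and these fibroblasts, among them 33 of those named above, including Myocd, Pln, Lmod1, Cnn1, Kcna5 and Npy1r.

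Within the gate the cells were not uniform. In each mouse they were divided into terciles by the 3 smooth muscle genes per 10000 UMIs, giving 20 lower and 21 upper cells in mouse 1 and 76 and 76 in mouse 2. The division uses genes of the same cells, so what follows is a description without a test, and a tercile is a range and not a type. The upper terciles lay between 283 and 389 per 10000 in mouse 1 and between 200.6 and 415 in mouse 2, and the lower ones between 6.37 and 70.9 and between 8.41 and 125. Within 10% of the lower boundary lay 2 cells of mouse 1 and 15 of mouse 2, and within 10% of the upper one 9 and 40. Of 4586 genes, 281 were at least 2-fold higher in the upper tercile of each mouse (6.13%) and 337 at least 2-fold lower (7.35%). Without cells above 40000 UMIs, 153 and 369 were, and the lists are given both ways. Divided at the median instead, 155 (3.38%) and 278 (6.06%) were.

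Of 24 contractile genes measured in the terciles, 16 were at least 2-fold higher in the upper tercile of each mouse and 0 lower (15 and 1 without cells above 40000 UMIs). Cnn1 went from 0 to 498 in mouse 1 and from 4.90 to 234 in mouse 2 CPM. Lmod1 went from 236 to 1015 in mouse 1 and from 165 to 732 in mouse 2, and Pln from 118 to 1523 in mouse 1 and from 318 to 1590.0 in mouse 2. Eln went from 27.3 to 162 in mouse 1 and from 33.5 to 354 in mouse 2. These genes thus moved with the gate genes among the cells of a mouse. Of 20 pericyte genes, 7 were lower and 0 higher (10 and 0 without those cells). Slc6a20a went from 459 to 134 in mouse 1 and from 127 to 27.1 in mouse 2, and Rgs5, which did not separate the cell types as a whole, from 7068 to 583 in mouse 1 and from 3593 to 1746 in mouse 2. Immediate early genes had 15 of 25 higher and 0 lower, and Fos went from 13.6 to 2434 in mouse 1 and from 1771 to 4658 in mouse 2. Without the large cells 5 of the 25 were higher and 1 lower, and the difference of Fos in mouse 2 went from 1.40 to 0.61 log2 (7.26 to 7.05 in mouse 1). Cacna1c went from 673 to 775 in mouse 1 and from 1171 to 832 in mouse 2, a difference under 2-fold in each mouse.

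Other measures differed between the terciles as well. The median mitochondrial share was 4.27% and 3.77% in the lower terciles and 9.25% and 7.29% in the upper ones. The haemoglobin sum was 83641 in the lower and 197 in the upper tercile of mouse 1, and 1402 and 81.3 in those of mouse 2. In the whole gate 1 cell held 18336 of 18563 haemoglobin UMIs in mouse 1, and 1 cell held 1668 of 1819 in mouse 2. The pericyte marker sum, gate genes included, was 18531 and 1910.5 in mouse 1 and 5815 and 3332 in mouse 2. The neuronal sum was 81.8 and 54.0 in mouse 1 and 2728 and 198 in mouse 2, and the astrocytic sum was 268 and 30.3 in mouse 2. The doublet caller Scrublet marked 1 and 7 cells in the lower terciles and 0 in the upper ones. Beyond the values without large cells, the part of these differences in the tercile values was not tested.

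**Figure D5:**
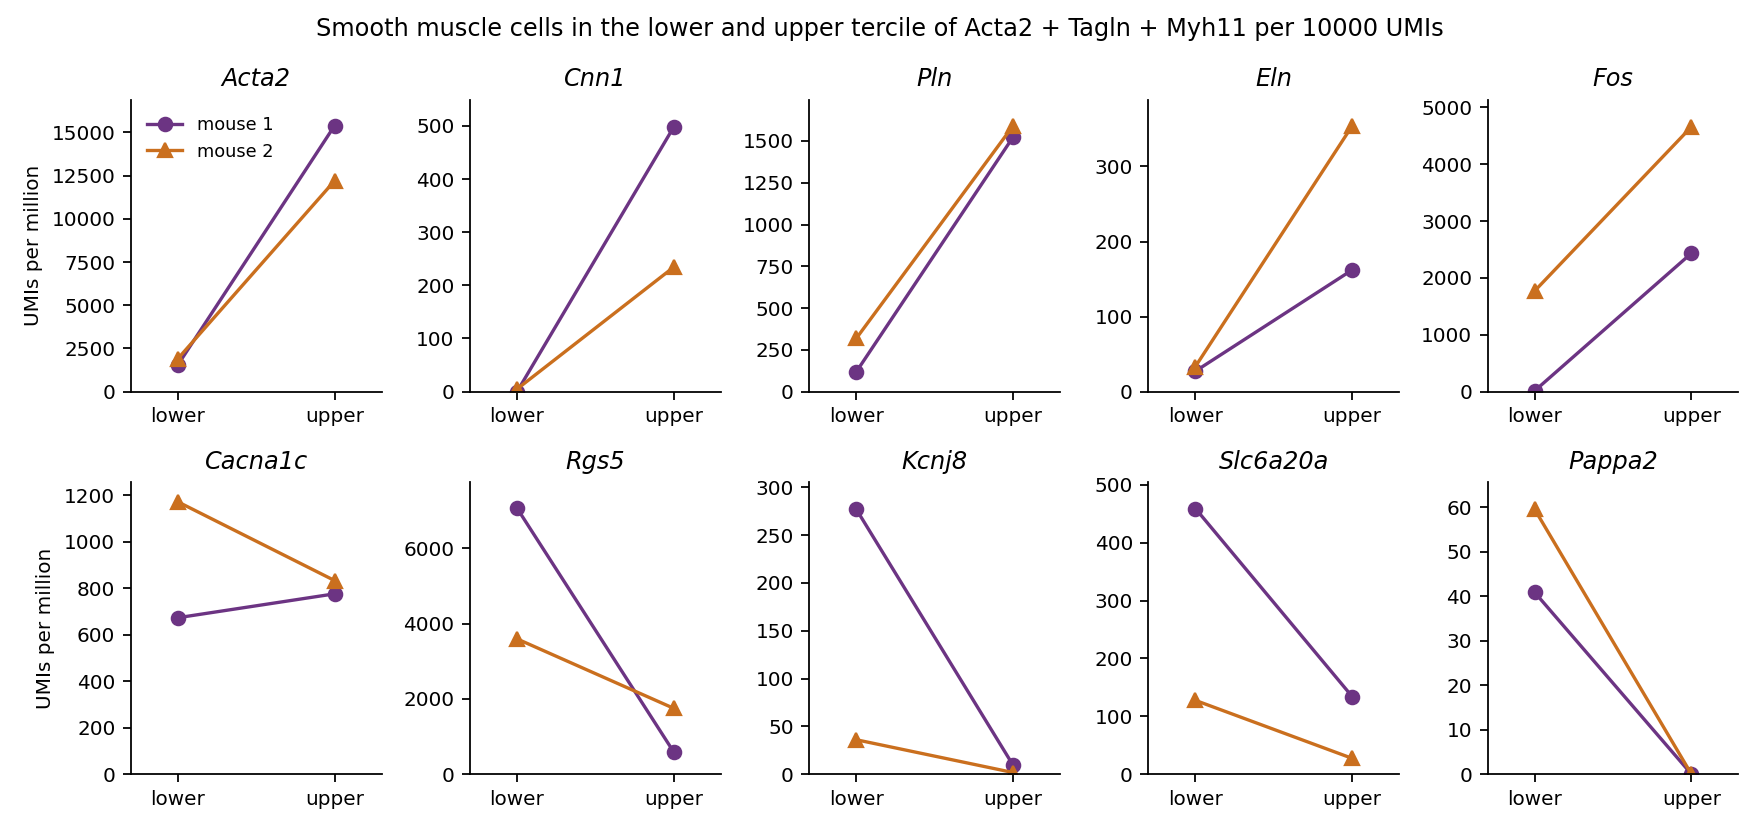
Levels of 10 genes, as CPM on linear axes that start at 0 and differ between panels, in the lower and upper tercile of smooth muscle cells by Acta2, Tagln and Myh11 per 10000 UMIs, with purple circles for mouse 1 and orange triangles for mouse 2 joined by lines. Cnn1, Pln, Eln and Fos lie higher in the upper tercile of each mouse, Rgs5, Kcnj8, Slc6a20a and Pappa2 lie lower, and Cacna1c differs by less than 2-fold in each mouse.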

How the data were processed

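The authors deposited a matrix of raw UMI counts per gene and cell barcode for each mouse, made with Cell Ranger 7.1.0 on mm10, and Seurat 5 is also named, both per the submitters' processing notes. The sources used here do not say whether intronic reads or strand were used. Cells were gated on these deposited counts with scanpy 1.11.5 and Python 3.11.15, doublets were marked with Scrublet but kept, and counts were summed per gate and mouse. The 12 sums of 6 cell types (smooth muscle cells, pericytes, endothelial cells, oligodendrocytes, microglia, astrocytes) were fitted together with edgeR 4.0.16 in R 4.3.3 (TMM scaling, filterByExpr, robust quasi-likelihood fit, mouse as block), which left 5 residual degrees of freedom and tested 16128 genes, 16114 of them outside the gates. The mouse number pairs the sums because every cell type came from the same 2 animals. Smooth muscle sums held 987631 and 2528892 UMIs, which limits precision more in mouse 1. Data of this comparison were simulated with a coefficient of variation of 0.29 between mice. Of the changed genes, 10 of 100 changed 2-fold and 80 of 100 changed 4-fold were recovered. There were 4 false calls among 16117 tested genes. Only this value was simulated, so the recovery and false calls of genes that vary more between mice are not shown. Calls needed a log2 fold change of 1 or more, and the median estimate of the genes changed 2-fold was 0.97. The size limit alone thus left many of those genes uncalled. A gene that was not called may therefore still differ by 2-fold. The simulated shares were not divided by level, so they do not show the recovery of genes with few UMIs. Such genes may differ by more and not be called. Htr1b, with 89 UMIs against 3 in pericytes, was 46.1 times as high (edgeR adjusted p = 0.094). Actg2, with 35 UMIs against 0, was at least 18.1-fold higher against a floor of 3 UMIs (edgeR adjusted p = 0.10).

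Coordinates are from GENCODE M21 (GRCm38), where 32235 of 32285 gene identifiers matched. Named genes were, per list, up to 4 called genes with the largest log2 fold change against pericytes, 1 direction in both mice and a mean of at least 50 CPM on the higher side, and outside the lists 10 higher and 6 lower ones. Other called list members, and the genes named in the tercile comparison, were chosen after their values were seen. The members and lists were chosen with earlier results of these data known. Alternatives were DESeq2 1.42.0, its size factors, no filter, no block, other gates and depths, and each mouse alone. The fibroblast gate as first defined was left out for its few cells. Some list members are not reported here by name.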

Additional observations from a re-analysis of the deposited data

How the results depend on the processing

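Against pericytes (491 higher, 217 lower), DESeq2's Wald test called 830 higher and 463 lower. The edgeR fit without the replicate block called 294 and 111, all among the genes called with it, and a fit of the smooth muscle and pericyte sums alone called 177 and 42. The 5% mitochondrial limit, which left 15 and 79 smooth muscle cells, gave 30 and 6, and against endothelial cells 646 higher where the full gate gave 1277. Leaving out cells above 40000 UMIs gave 870 and 646, and the literal pericyte gate gave 583 and 1077, of which 354 and 161 were shared with the full gates. Lower calls numbered 412 without smooth muscle cells of 5 or more pericyte UMIs and 383 with a minimum of 50 smooth muscle UMIs. The cause of these shifts was not tested. With 1 mouse left out there was no test, and of the calls 472 to 485 higher and 213 to 216 lower genes differed 2-fold in the remaining mouse (against endothelial cells 1198 to 1234 and 1267 to 1369). Splitting smooth muscle cells at the median gave 155 genes higher in the upper part and the terciles without cells above 40000 UMIs gave 153, where all cells in terciles gave 281.

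Of 957 values of the 64 named genes under alternatives, 136 were no longer called or, with 1 mouse left out, under 2-fold, and 0 changed sign. The mitochondrial limit accounted for 52 of the losses, the fit of the 2 sums alone for 28, the fit without the replicate block for 20, cells of at least 5000 UMIs for 11 and the literal pericyte gate for 10. Called under every alternative that tested them, and at least 2-fold in each mouse, were 10 genes: Csrp1, Lama5, Lmod1, Ltbp1, Myocd, Nodal and Olfml2a, and Cnn1, Fbxl22 and Sh3bgr, which were not tested under the mitochondrial limit. Among 39 other called list members, 107 of 585 values were no longer called or under 2-fold and 1 changed sign, Piezo1 at -0.93 with the literal pericyte gate. DESeq2's size factors shifted the median gene by -0.02 log2 against pericytes and 0.05 against endothelial cells. The fibroblast comparison was not run as designed, since its gate held 5 cells per mouse, and its added gate was chosen after seeing the data.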

Other observations

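The genes with the largest differences between the terciles, chosen after their values were seen and given without a test, were of different kinds. Plin4, a lipid droplet protein, had 0 and 72.9 CPM (UMIs per 1000000) in the lower and upper tercile of mouse 1 and 1.63 and 65.4 in those of mouse 2. Igfbp4, which binds insulin-like growth factors, had 27.3 and 336 in mouse 1 and 8.98 and 131 in mouse 2. Sdc4, a heparan sulphate proteoglycan of the cell surface, had 22.7 and 176 in mouse 1 and 35.9 and 311 in mouse 2. All 3 thus followed Acta2, Tagln and Myh11 in each mouse.

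Of the 12 genes with the largest differences in the other direction, 11 were counted in pericytes of each mouse. The pericyte levels given here are scaled for composition and the tercile levels are not. Eps8, an actin-capping protein, had 264 and 11.8 in mouse 1 and 161 and 12.8 in mouse 2, with 359.6 and 339 in pericytes. The basement membrane collagen chain Col4a3 had 123 and 0 in mouse 1 and 38.4 and 1.59 in mouse 2, with 74.5 and 84.9 in pericytes. Pappa2, a protease that cleaves binding proteins of insulin-like growth factors, differed from these. It had 40.9 and 0 in mouse 1 and 59.6 and 0 in mouse 2, while no UMI of it was counted in the pericytes of either mouse. Rgs16, a regulator of G protein signalling, had 27.3 and 0 in mouse 1 and 100.4 and 4.78 in mouse 2, with 21.5 and 28.3 in pericytes.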
